A study of Mus musculus with 5 samples.

Results

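Homeostatic microglia genes are the transcripts that mark microglia at rest. The 9 genes P2ry12, Tmem119, Cx3cr1, Csf1r, Sall1, Siglech, Gpr34, Selplg and Olfml3 were taken by symbol from a deposited table of 53700 gene IDs, and all 9 were found and had counts. The libraries held ribosome-bound RNA that had been purified from midbrain by BAC-TRAP (bacterial artificial chromosome translational affinity purification), in which an EGFP-tagged ribosomal protein (L10a) is switched on by Cre and pulled down with an antibody against GFP. All mice were C57BL/6 by the labels (C57BL/6J in the study's methods), carried the L10a transgene, received AAV:THCre (an adeno-associated virus with Cre under a tyrosine hydroxylase promoter) in the midbrain and were 4 months old. In L10a;Esrrg Flox mice this Cre also removes exon 2 from Esrrg, which encodes the nuclear receptor ERR gamma, whereas L10a;Esrrg WT mice have no floxed allele. Tissue was taken 1 month after injection, and each library came from a pool of animals. The WT group had 3 libraries, numbered 2, 3 and 4 in the labels, and the Flox group had 2, numbered 2 and 4. The p-values measure the spread between these pools, which may be partly technical.

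Microglia are the resident macrophages of the brain. They depend on signalling through the receptor Csf1r for survival, and their resting state is kept by contact with neurons, by TGF-beta signalling and by transcription factors such as Sall1. When microglia meet injury or degeneration, several homeostatic genes are known to fall while genes for phagocytosis and lysosomal function rise, and P2ry12 and Tmem119 are therefore widely used to tell resting from activated cells. Virus-delivered Cre with the TH promoter is directed to dopaminergic (DAergic) neurons, so microglial transcripts were not the target of the purification. In such bulk material more microglia, more RNA per microglial cell and more carry-over of microglial RNA through the purification cannot be told apart.

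The libraries held between 20635855 and 23105058 counts assigned to genes, and a gene with 0 counts could be present at up to 0.145 CPM (counts scaled to the library total, here the level of 3 counts), a limit that covers counting error only. On the first principal component of 16711 genes, WT replicate 4 (-41.5) and Flox replicate 4 (47.7) lay farthest apart, with the other 3 libraries between -14.1 and 18.3. On the second component replicate 4 of either group (-29.8 in WT, -22.1 in Flox) lay apart from the other 3 libraries (14.8 to 19.2). Esrrg itself had 1763, 1643 and 1726 normalized counts in WT against 1504 and 1170.1 in Flox, and counts over the whole gene do not measure the loss of 1 exon (-0.35 on the log2 scale, SE 0.13, DESeq2 adjusted p = 0.0753). Markers of dopaminergic neurons held 0 calls higher and 0 lower among 12 genes (Ret passed the adjusted p at a fold change under 1.5), with 3 at an unadjusted p under 0.05 and 0 called by edgeR. The shares called over all genes tested were 1.77% higher and 1.41% lower. In 5 of the 12 both Flox libraries lay below all WT libraries (22.5% of all genes tested), and in 2 they lay above (19.9%). Astrocyte markers held 0 calls among 7 (1 at an unadjusted p under 0.05, 0 called by edgeR), and oligodendrocyte markers held 0 among 7 (0 at an unadjusted p under 0.05, 0 called by edgeR).

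The first question was how much of this RNA the TRAP libraries held. Together the 9 genes had 1041, 1269 and 872 raw counts in WT replicates 2, 3 and 4, and 1610 and 2154 in Flox replicates 2 and 4. As a share of all assigned counts this was 50.4, 60.1 and 37.7 CPM in WT and 70.4 and 94.3 CPM in Flox. Both Flox libraries therefore lay above all 3 WT libraries, and WT replicate 4 was the lowest. Levels were set beside each other per length, as normalized counts per kilobase of merged exon (normalized counts are counts divided by the library's size factor). On this scale Csf1r (43.9), Sall1 (42.5), Tmem119 (40.4) and Cx3cr1 (35.1) had the highest WT means, followed by Selplg (27.9), P2ry12 (22.1), Olfml3 (19.3), Siglech (12.5) and Gpr34 (4.70). The WT ranges of neighbours in this order overlapped in all 8 pairs, but all genes were measured in the same libraries. Within each WT library 4 of the 8 pairs kept their order, namely Tmem119 above Cx3cr1, Cx3cr1 above Selplg, Olfml3 above Siglech and Siglech above Gpr34, and the other 4 did not. In Flox the order of the means began with Tmem119 (90.5), Cx3cr1 (77.7) and Csf1r (75.4), and Sall1 was at 44.1.

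The main comparison asked which of the 9 genes differed in Esrrg Flox. A gene was called with a DESeq2 adjusted p under 0.05 over all genes and a fold change of at least 1.5. Of the 9 genes, 4 were called higher (Tmem119, Cx3cr1, Olfml3 and Csf1r) and 0 lower, where 1.77% of the 15724 genes tested were called higher. The median log2 fold change of the 9 was 0.88, beside -0.00626 over all genes tested. For the lower direction the share of genes called was 1.41%. In 7 of the 9 the lower Flox library exceeded the highest WT library, an arrangement found in 19.9% of all genes tested, and in 0 of the 9 were both Flox libraries below the WT libraries (22.5% of genes). The same 7 had a fold change of at least 1.5, beside 6.09% of genes. Sall1 and P2ry12 were the 2 exceptions. With edgeR's quasi-likelihood test 0 of the 9 passed, where 0.607% of genes were called higher; 7 had an unadjusted p under 0.05 in both tools, beside 9.74% of genes higher in DESeq2 and 11.5% in edgeR. The 4 called genes had edgeR adjusted p-values between 0.0560 and 0.0837.

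**Figure D1:**
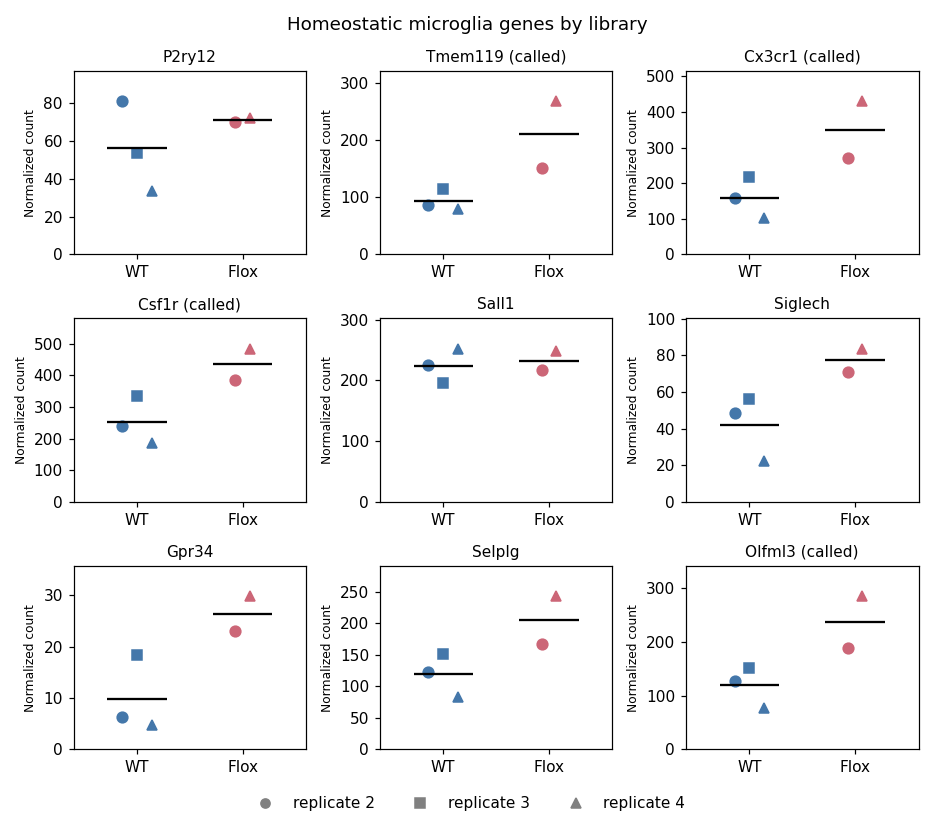
Normalized counts (vertical axis, from 0) of the 9 homeostatic microglia genes in each library, with WT in blue, Flox in red, marker shapes for the replicate number and a line at the group mean. In 7 of the 9 genes both red points lay above the blue ones, in Sall1 they lay within the WT range, and in P2ry12 both Flox libraries (70.1 and 72.6) lay below WT replicate 2 (81.1).

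The receptors for the 2 best known survival and contact signals were both higher. Csf1r (ENSMUSG00000024621.17, chromosome 18), the receptor for the growth factors CSF1 and IL-34, had 241, 334 and 185 normalized counts in WT replicates 2, 3 and 4 and 387 and 484 in Flox replicates 2 and 4. The 2 groups did not overlap. The WT mean was 254 ± 75.2 (SD, n = 3), the Flox mean was 436 ± 68.6 (SD, n = 2), and the log2 fold change was 0.78 (SE 0.24, DESeq2 adjusted p = 0.0188). In GENCODE release M21, 15.1% of the exon bases of Csf1r are shared with Hmgxb3 on the opposite strand, and reads there may have been set aside as ambiguous because strand was not recorded. Cx3cr1 (ENSMUSG00000052336.8, chromosome 9), the receptor for the neuronal chemokine fractalkine, had 158, 216 and 101 normalized counts in WT and 271 and 429 in Flox. The lower Flox library was above every WT library, and the WT libraries themselves spread widely. Its log2 fold change was 1.15 (SE 0.29, DESeq2 adjusted p = 0.00405).

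Among the other surface and secreted products, Tmem119 had the lowest adjusted p. Tmem119 (ENSMUSG00000054675.6, chromosome 5), a membrane protein found in the brain almost only on microglia, had 86.4, 115 and 78.8 normalized counts in WT and 152 and 267 in Flox, a log2 fold change of 1.17 (SE 0.30, DESeq2 adjusted p = 0.00380). Olfml3 (ENSMUSG00000027848.13, chromosome 3), a secreted olfactomedin-like protein, had 127, 152 and 77.8 in WT and 188 and 284 in Flox (0.99, SE 0.30, DESeq2 adjusted p = 0.0176). In both genes Flox replicate 4 was well above Flox replicate 2, by 1.76-fold for Tmem119 and 1.51-fold for Olfml3. Selplg (ENSMUSG00000048163.14, chromosome 5), which encodes the selectin ligand PSGL-1 and is also used by leukocytes, had 123, 152 and 82.6 in WT and 167 and 243 in Flox. The groups did not overlap, but the difference did not pass (0.78, SE 0.29, DESeq2 adjusted p = 0.0698). Siglech (ENSMUSG00000051504.19, chromosome 7), a sialic acid-binding lectin of microglia and plasmacytoid dendritic cells, had 48.5, 56.0 and 22.1 in WT and 71.1 and 83.5 in Flox, and did not pass either (0.88, SE 0.42, DESeq2 adjusted p = 0.1998). Tmem119 and Selplg, which neighbour each other on chromosome 5, thus had log2 fold changes of 1.17 and 0.78, and the difference between them was not tested.

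The G protein-coupled receptors P2ry12 and Gpr34 did not pass. P2ry12 (ENSMUSG00000036353.14, chromosome 3), the ADP receptor through which microglial processes are drawn to injury, had 81.1, 54.0 and 33.6 normalized counts in WT and 70.1 and 72.6 in Flox. The Flox libraries lay inside the WT range, and the 95% interval of the log2 fold change (0.35, SE 0.40, DESeq2 adjusted p = 0.717) ran from -0.43 to 1.12. A rise of the size seen in Csf1r is therefore within the interval for P2ry12. Gpr34 (ENSMUSG00000040229.12, chromosome X), a receptor for lysophosphatidylserine, was near the limit of these libraries, with 6, 18 and 5 raw counts in WT and 24 and 30 in Flox. Both Flox libraries were above the WT libraries and the interval of its log2 fold change (1.43, DESeq2 adjusted p = 0.231) was wide, from 0.032 to 2.83.

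Sall1 (ENSMUSG00000031665.8, chromosome 8), the zinc-finger transcription factor that holds microglia in their resting identity, had nearly the same level in both groups. It had 224, 196 and 252 normalized counts in WT and 217 and 248 in Flox, and both Flox libraries lay within the WT range. Its log2 fold change was 0.052 (SE 0.20, DESeq2 adjusted p = 0.936), with a 95% interval from -0.34 to 0.45. Sall1 was also the only 1 of the 9 genes whose lowest WT library was not replicate 4. From highest to lowest, its libraries were WT replicate 4, Flox replicate 4, WT replicate 2, Flox replicate 2 and WT replicate 3. The astrocyte markers Gfap, Aqp4, Slc1a3 and Gja1 had this same order, while Aldh1l1, Slc1a2 and S100b did not. Whether part of the Sall1 RNA came from cells other than microglia was not tested. As a share of the summed normalized counts of the 9 genes, Sall1 took 20.5%, 15.1% and 30.0% in WT and 14.04% and 11.6% in Flox, so the Flox libraries lay below the WT libraries. The share of P2ry12 was 7.40%, 4.18% and 4.01% in WT and 4.53% and 3.39% in Flox, and the groups overlapped. The share of Tmem119 was 7.88%, 8.90% and 9.40% in WT and 9.81% and 12.5% in Flox. Shares within a sum are not independent, since a rise of 1 gene lowers the others.

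**Figure D2:**
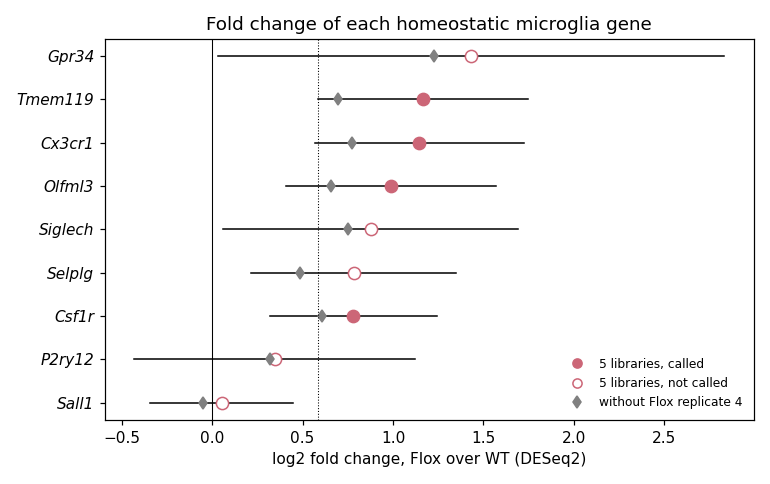
DESeq2 log2 fold change of Flox over WT (horizontal axis) for each of the 9 genes, with bars for the 95% interval, filled circles for called genes, open circles for genes not called, grey diamonds for the fit without Flox replicate 4 and a dotted line at a fold change of 1.5. The values ran from 0.052 (Sall1) to 1.43 (Gpr34), and the intervals of Sall1 and P2ry12 included 0.

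Promoter sequences were set beside these values because 4 genes moved together and 2 lay within the WT range. RefSeq (GRCm38.p6) gave windows of 250 bases before to 50 bases after the start for 5 of the 9 genes, in 7 windows, of which 3 belonged to Sall1. The letters AGGAA, the core that the myeloid factor PU.1 shares with other ETS factors, were searched on both strands and are in capitals below (TTCCT on the opposite strand). They were found in 5 of the 7 windows, and 66.7% of the 32851 windows in RefSeq hold them. Each of the 5 genes had 1 window with a match, and the other 2 windows of Sall1 had none. The response element of the ERR receptors, AAGGTCA, was in 0 of the 7 windows and in 4.72% of all windows. Shown are Cx3cr1 (chr9:120068247-120068546, minus strand) and Olfml3 (chr3:103737952-103738251, minus strand), which were called, and P2ry12 (chr3:59262936-59263235, minus strand) and the Sall1 window with the most CpG dinucleotides (chr8:89042813-89043112, minus strand), which were not. Each is written 5′ to 3′.
Cx3cr1: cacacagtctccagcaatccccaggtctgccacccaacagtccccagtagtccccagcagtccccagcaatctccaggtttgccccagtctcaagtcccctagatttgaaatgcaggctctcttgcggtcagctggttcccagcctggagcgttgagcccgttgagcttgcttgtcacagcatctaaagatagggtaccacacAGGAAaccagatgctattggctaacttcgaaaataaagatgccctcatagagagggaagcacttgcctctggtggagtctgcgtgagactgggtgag
Olfml3: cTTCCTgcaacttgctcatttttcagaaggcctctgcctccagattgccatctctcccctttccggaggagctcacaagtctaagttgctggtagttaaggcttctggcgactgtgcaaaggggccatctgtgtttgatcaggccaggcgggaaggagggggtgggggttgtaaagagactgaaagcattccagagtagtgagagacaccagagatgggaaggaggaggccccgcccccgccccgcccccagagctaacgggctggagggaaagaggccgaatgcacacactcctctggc
P2ry12: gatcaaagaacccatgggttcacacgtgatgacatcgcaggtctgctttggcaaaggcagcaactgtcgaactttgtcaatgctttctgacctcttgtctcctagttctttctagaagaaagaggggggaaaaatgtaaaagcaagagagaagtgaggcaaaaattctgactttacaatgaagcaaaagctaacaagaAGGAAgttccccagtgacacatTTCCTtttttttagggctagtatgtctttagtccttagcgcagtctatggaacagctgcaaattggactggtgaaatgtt
Sall1: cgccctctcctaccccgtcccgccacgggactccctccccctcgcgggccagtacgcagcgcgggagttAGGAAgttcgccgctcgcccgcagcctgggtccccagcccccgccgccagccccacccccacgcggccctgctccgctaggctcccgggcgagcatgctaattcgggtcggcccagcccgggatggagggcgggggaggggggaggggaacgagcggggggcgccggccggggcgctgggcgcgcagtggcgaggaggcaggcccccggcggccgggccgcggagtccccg
The Sall1 windows held 18 to 39 CpG dinucleotides, beside 2 to 8 in the windows of Cx3cr1, Olfml3, P2ry12 and Siglech and a median of 7 over all windows. A match is a description of letters and not a measured site.

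The replicate numbers showed how far single libraries carried these differences. In the 7 genes whose groups did not overlap, the lower Flox library exceeded the highest WT library by 1.10-fold to 1.32-fold, while the WT libraries differed among themselves by 1.46-fold to 3.82-fold. Flox replicate 4 was 2.61-fold to 6.21-fold above WT replicate 4 in these genes, and Flox replicate 2 was 1.36-fold to 3.65-fold above WT replicate 2. The values of 3.82, 6.21 and 3.65 were all those of Gpr34, which had only 5 to 30 raw counts. The next highest were 2.54 (Siglech), 4.26 (Cx3cr1) and 1.76 (Tmem119), in the same order. WT replicate 4 was the lowest WT library in 8 of the 9 genes, and Flox replicate 4 was above Flox replicate 2 in all 9. Without Flox replicate 4, 0 of the 9 were called, where 0.137% of genes were called higher. In that fit 3 of the 9 had an adjusted p and 2 had an unadjusted p under 0.05. The 4 called genes then had log2 fold changes between 0.61 and 0.77. Without WT replicate 4 the 1 gene called was Cx3cr1 (0.90, DESeq2 adjusted p = 0.0172), among 3 with an adjusted p, and without WT replicate 2 it was again Cx3cr1 (1.14, DESeq2 adjusted p = 0.0357).

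A further list of 17 genes of resting microglia, none of them among the 9, was read from the same fit. Of these, 2 were called higher and 0 lower, where 1.77% and 1.41% of all genes tested were. Bin2, a membrane-shaping protein of leukocytes, was among the 2 (1.44 on the log2 scale, SE 0.33, DESeq2 adjusted p = 8.7e-04). In 9 of the 17 the DESeq2 unadjusted p was under 0.05, all of them higher (9.74% of all genes tested). The median of the list was 0.74, and in 12 of the 17 both Flox libraries lay above the WT libraries (19.9% of all genes tested). With edgeR 1 of the 17 passed, Bin2, where 0.607% of genes were called higher. The median was 0.44 without Flox replicate 4.

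The next question was whether the homeostatic genes moved as much as other microglial genes. Of 12 genes listed as pan-microglial, 9 rose and 0 fell, where 1.77% of all genes tested were called higher. Their median log2 fold change was 1.59. Both Flox libraries lay above the WT libraries in all 12 (19.9% of all genes tested). Whether the level of these 12 genes changes with the state of microglia was not tested. Fcer1g, an immunoreceptor adaptor, was at 2.21 (SE 0.35, DESeq2 adjusted p = 4.6e-07) and Aif1, which encodes the microglial protein Iba1, was at 2.24 (SE 0.72, DESeq2 adjusted p = 0.0316). The 3 genes of complement C1q all rose, with a median of 2.10. Of 19 genes listed as markers of activated microglia, 11 rose and 0 fell, with a median of 0.76. Values ran up to 2.90 for Cst7, an inhibitor of cathepsins (SE 0.41, DESeq2 adjusted p = 5.1e-09). Apoe, Ctsb and Spp1 had WT means of 57237, 13607 and 1986 normalized counts, against 83.4 for Trem2 and 20.9 for Cst7. The cells from which the RNA of each gene came were not measured, and the median weighs all 19 alike. Trem2, a lipid receptor of activated microglia, was at 2.05 (SE 0.33, DESeq2 adjusted p = 6.0e-07), whereas Spp1 (-0.23) and Igf1 (-0.010) did not pass. Trem2 had 100.1, 87.6 and 62.5 normalized counts in WT and 203 and 486 in Flox, so that Flox replicate 4 was again the highest library. Without Flox replicate 4 the medians of the 3 lists were 0.98, 1.41 and 0.62, beside 0.66 for the 9 homeostatic genes. With edgeR the calls were 4 of 12, 3 of 3 and 6 of 19, where 0.607% of genes were called higher. The highest value among the 9 homeostatic genes was 1.43 (Gpr34), and that of a called gene among them was 1.17. Lists were compared by counts and medians alone, and no test of the difference between lists was made.

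**Figure D3:**
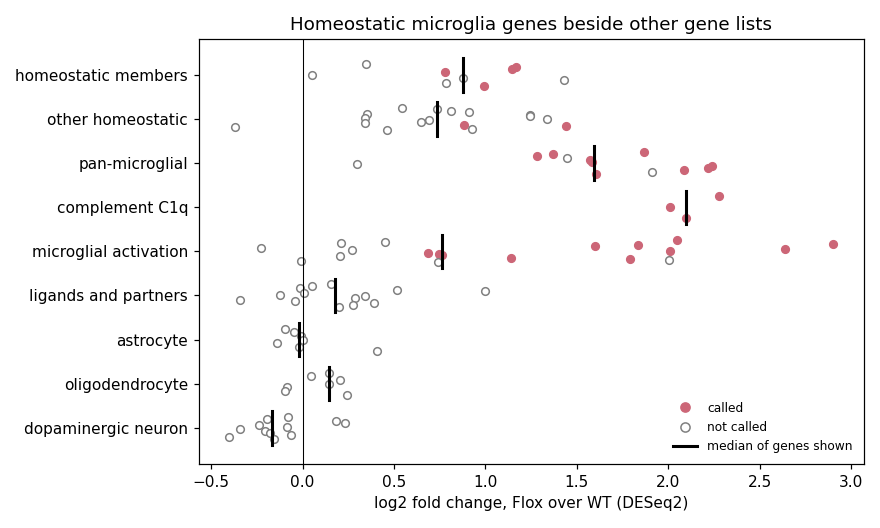
DESeq2 log2 fold change of Flox over WT (horizontal axis) for single genes of 9 lists (rows), with filled circles for called genes, open circles for genes not called and a bar at the median of the genes shown, which had a mean of at least 5 normalized counts. The median was 0.88 for the homeostatic genes, 1.59 for pan-microglial genes and 2.10 for C1q genes, and the neural lists lay near 0, from -0.17 to 0.15.

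Within each library the summed normalized counts of the 9 genes were divided by those of the 12 pan-microglial genes. This ratio was 43.5%, 47.5% and 41.6% in WT and 43.1% and 36.5% in Flox, and the groups overlapped (difference of -0.15 on the log2 scale). Coro1a, an actin-binding protein of leukocytes, made up 36.4% to 75.7% of the reference and differed least in that list (0.30, DESeq2 adjusted p = 0.114). It had 1577, 1680 and 1523 normalized counts in WT, where Laptm5, the next highest by WT mean, had 221, 244 and 142. The cells from which the RNA of Coro1a and of Sall1 came were not measured. Members and reference were then both taken as the mean log2 normalized count (1 added to each count), in which each gene weighs the same. On that scale the difference was -0.71 and the groups did not overlap. With Coro1a left out of the sum, a choice made after seeing its share, the ratio was 116%, 124% and 171% in WT and 86.0% and 57.5% in Flox, a difference of -0.94. Against this sum without Coro1a all 9 genes had a lower mean log2 ratio in Flox and in 8 of them both Flox libraries lay below the WT libraries. The 1 exception was Gpr34 (-0.052). The differences were -1.67 for Sall1, -1.29 for P2ry12, -0.92 for Selplg, -0.91 for Csf1r, -0.75 for Siglech, -0.71 for Olfml3, -0.60 for Tmem119 and -0.55 for Cx3cr1. All 12 pan-microglial genes and all 3 C1q genes were themselves higher in both Flox libraries than in any WT library. A gene at the same level in both groups would therefore also have a lower ratio to the sum without Coro1a or to C1q. The share of all genes with such ratios was not computed, so these counts do not set the 9 genes apart from other genes. Against the full sum with Coro1a, by contrast, 5 of the 9 were higher and 4 lower, so the direction of the relative level depended on the reference. Against the 3 summed C1q genes the 9 genes were at 79.3%, 76.0% and 103% in WT and at 44.5% and 26.4% in Flox. The 17 further genes of resting microglia, set against the same reference without Coro1a, were at 139%, 135% and 232% in WT and at 93.9% and 65.6% in Flox. With 3 against 2 libraries an exact two-sided permutation test on the absolute difference of means cannot give a p below 0.1, and none was run.

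**Figure D4:**
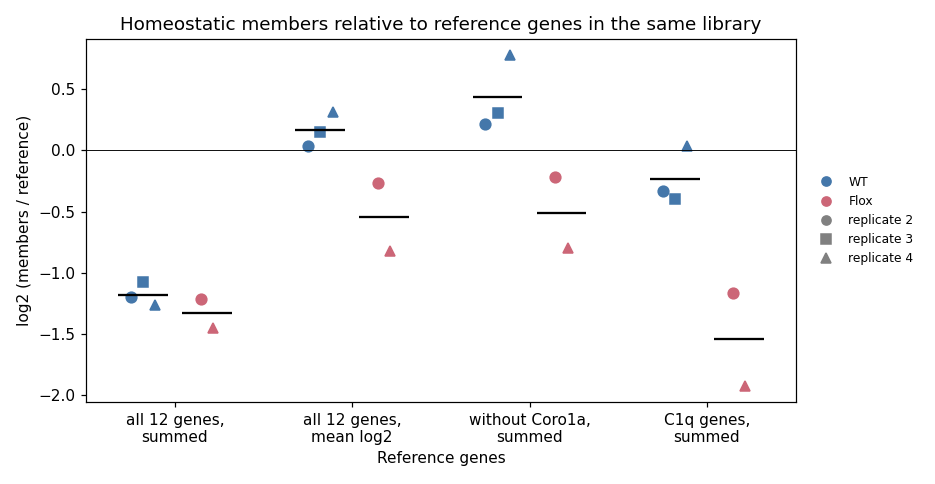
Level of the 9 homeostatic genes relative to reference genes in the same library (vertical axis, log2), for 4 references on the horizontal axis (all 12 pan-microglial genes summed, their mean log2 level, their sum without Coro1a, and the 3 C1q genes summed), with WT in blue, Flox in red, shapes for replicate numbers and a line at each mean. For the mean log2 level the 9 homeostatic genes were averaged in the same way. The groups overlapped for the first reference (difference of -0.15) and did not for the others (-0.71, -0.94 and -1.31). The reference genes were themselves higher in Flox.

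The ligands of these receptors were measured in the same libraries. Csf1 had 678, 537 and 538 normalized counts in WT and 577 and 726 in Flox (0.16 on the log2 scale, DESeq2 adjusted p = 0.691, 95% interval -0.17 to 0.49). Il34, the neuronal ligand of Csf1r, had 555, 644 and 542 in WT and 628 and 575 in Flox (0.052, DESeq2 adjusted p = 0.910, 95% interval -0.24 to 0.34). Cx3cl1, the neuronal ligand of Cx3cr1, had 5706, 6185 and 4963 in WT and 5300 and 5844 in Flox (-0.012, DESeq2 adjusted p = 0.978, 95% interval -0.25 to 0.22). For all 3 ligands the groups overlapped. The selectins Selp and Sele, which bind the product of Selplg, had at most 1.99 normalized counts in any library, and neither had an adjusted p.

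Genes that followed the 4 called members most closely were sought among 12838 genes with a mean of at least 50 normalized counts. Likeness was the root mean square distance between centred log2 profiles over the 5 libraries. The 5 nearest were Hk2 (distance of 0.048 log2 units), Lcp2 (0.075), Il3ra (0.077), Anxa3 (0.092) and Parvg (0.11). Hk2, a hexokinase, had 93.8, 112 and 63.4 normalized counts in WT and 141 and 217 in Flox, and was itself called (1.00, SE 0.30, DESeq2 adjusted p = 0.0206). The 4 called genes are part of the profile they are measured against, so their own distances are partly to themselves. Among the 9 homeostatic genes the distances ran from 0.077 for Olfml3 to 0.47 for P2ry12 and 0.63 for Sall1.

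Markers of other cells that can share genes with microglia were read from the same fit. Over all genes tested, 1.77% were called higher by DESeq2 and 0.607% by edgeR. Of 9 border macrophage markers 3 had an adjusted p and 0 were called (2 of the 9 at an unadjusted p under 0.05, 0 called by edgeR). Their log2 fold changes ran from -1.63 (Lyve1) to 2.77 (Ms4a7). Their summed normalized counts were between 69.2 and 144 in WT and 193 and 222 in Flox, with none at 0. Of 7 monocyte and neutrophil markers 3 had an adjusted p and 2 were called higher (Ly6c2 and Plac8), while edgeR called 0 (3 at an unadjusted p under 0.05). Their sums were 69.2 to 117 in WT and 189 to 215 in Flox, and Chil3 was at 0 in all WT libraries. Of 6 T cell markers 4 had an adjusted p and 1 was called higher (Cd8a, also by edgeR), with sums of 63.4 to 126 in WT and 213 to 379 in Flox. Of 7 endothelial markers 3 were called higher (Cldn5, Flt1 and Slco1a4), while edgeR called 0 (5 at an unadjusted p under 0.05). Their sums were 112 to 248 in WT and 266 to 665 in Flox. The groups overlapped for Cldn5, and without Flox replicate 4 the log2 fold changes went from 1.58 to 0.68 for Cldn5, from 1.999 to 0.65 for Flt1 and from 1.94 to 0.88 for Slco1a4. In each of these 4 lists the Flox sums lay above the WT sums, as those of the 9 homeostatic genes did (838 to 1293 in WT, 1547 and 2141 in Flox). Their part in the differences of the homeostatic genes was not tested.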

How the data were processed

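The authors trimmed poly(A)-selected, non-strand-specific reads with Trim Galore, aligned them with STAR and obtained gene counts with HTSeq-count. The study's methods name GRCm38 with GENCODE release M24 and the submitters' processing notes name GRCm39, so no coordinates were taken for the counts. The deposited table holds raw counts, with 5 summary lines left out. Of all reads counted, 5.62% to 5.78% were ambiguous between genes. Names were given to 52093 of 53700 IDs (97.0%) from GENCODE release M21, whose exons also gave lengths and overlaps.

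The 29407 genes with a count were fitted with the study's tool, DESeq2 (version 1.42.0, under R 4.3.3), using a two-sided Wald test with Benjamini-Hochberg adjustment over all genes. edgeR version 4.0.16 was an alternative, as were TMM library sizes, a filter of at least 10 counts in at least 2 libraries, no independent filtering, a replicate block and each library left out. The code was tested on simulated data. No 2 libraries agreed within counting noise (chi-square per degree of freedom of 4.54 or more). The members, lists and motifs were chosen with earlier results of these data known. Named genes were the 9 members, Esrrg, called genes of each list (at most 3 of each end), ligands of members and the 5 nearest profiles. Coro1a, Trem2, Spp1, Igf1 and the selectins' levels were singled out after their values were seen, as was Ret. Single values of some list genes are not reported here.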

Additional observations from a re-analysis of the deposited data

How the results depend on the processing

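Of the 9 genes, 8 kept a positive log2 fold change in all 10 alternatives, the 4 called ones among them. The exception was Sall1, which was at -0.036 with the replicate block and between -0.049 (without Flox replicate 4) and 0.14 with 1 library left out, where it was also below 0 without WT replicate 3 (-0.037). Against 4 genes called, edgeR called 0 (7 at an unadjusted p under 0.05), and 0 to 5 were called with 1 library left out. The median of the 9 lay between 0.59 and 1.14 with 1 library left out. For the list of 17 further genes, against 2 called, edgeR called 1, and 0 to 3 were called with 1 library left out, the 0 without Flox replicate 4 (1 at an unadjusted p under 0.05). The level relative to pan-microglial genes moved from -0.15 to -0.71 with mean log2 levels, to -0.94 without Coro1a and to 0.00995 without Sall1 among the members (the last 2 chosen after seeing the data), and lay between -0.27 and -0.034 with 1 library left out. The cause of these changes was not tested.

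The replicate number was shared by 2 pairs of libraries, and nothing in the labels says that a number marks a shared litter or day. Deviations from the group means correlated at 0.0932 and 0.0874 within the same number, and with 2 pairs such values cannot settle whether a number marks a shared origin. The second principal component did set both libraries numbered 4 apart. With the replicate block 6 of the 9 genes and 5 of the 17 had an adjusted p, and 2 (Cx3cr1 and Csf1r) and 1 of these were called. Depth limited Gpr34, with 5 raw counts in WT replicate 4.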

Other observations

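The other genes of the signals that keep microglia at rest were read from the list of 18 ligands and partners, of which 0 were called (5 at an unadjusted p under 0.05, 0 called by edgeR). In the TGF-beta branch, Nrros, which presents latent TGF-beta on microglia, had 29.5, 32.6 and 24.02 normalized counts in WT and 50.9 and 63.6 in Flox (log2 fold change 1.00, DESeq2 adjusted p = 0.118). Tgfb1 had 96.9, 110.1 and 105 in WT and 126 and 172 in Flox (0.52, DESeq2 adjusted p = 0.227). The receptors Tgfbr1 (0.34, DESeq2 adjusted p = 0.371) and Tgfbr2 (0.29, DESeq2 adjusted p = 0.594) did not pass, nor did the signal transducer Smad3 (-0.039, DESeq2 adjusted p = 0.942). Its partner Smad2 had 781, 774 and 846 in WT and 685 and 579 in Flox (-0.34, DESeq2 adjusted p = 0.11) and did not pass either. Both Flox libraries lay above the WT libraries in Nrros, Tgfb1, Tgfbr1 and Tgfbr2 (19.9% of all genes tested) and below them in Smad2 (22.5%). In Smad3 the groups overlapped, as they did in the integrin genes of the list, Itgav (0.010, DESeq2 adjusted p = 0.99) and Itgb8 (-0.12, DESeq2 adjusted p = 0.820). Among all 18 genes of the list, both Flox libraries lay above the WT libraries in 6 and below them in 1.

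Cd200, a neuronal surface protein that restrains microglia, had 3637, 3946 and 3149 normalized counts in WT and 4401 and 4976 in Flox. Its log2 fold change of 0.39 passed the adjusted p (SE 0.12, DESeq2 adjusted p = 0.0286) at a fold change under 1.5, and its edgeR adjusted p was 0.0884. Its receptor Cd200r1 had at most 2.98 normalized counts in any library. These genes were singled out after their values were seen.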
